A study of Rattus norvegicus with 16 samples.

Results

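Immediate early genes are transcribed within minutes of a stimulus from factors already present in the cell, and in the hypothalamus they are widely used as a record of which neurons a stressor has activated. Several of them code for transcription factors, which then set a slower wave of target genes. Described here are 10 of them, followed across 4 groups of samples from rats: the orphan nuclear receptors Nr4a1, Nr4a2 and Nr4a3, the zinc finger factors Egr1, Klf6 and Klf4, the stress-response regulators Gadd45g and Gadd45b, the synaptic gene Arc, and Ier2. They were identified by name in the array's annotation table, which assigns 15 of 31042 probe sets to exactly 1 of them. Of 14217 genes with such a probe set, these are 10. Every member had at least 1 probe set bright enough to be tested (a mean over all arrays at or above the 40th percentile), and 14 of the 15 probe sets passed. The probe set below that limit is the dimmest of 3 for Nr4a3.

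The samples were hypothalamus of male Wistar rats aged 7 to 8 weeks, measured on 16 arrays. One group of 4 was the control, another was restrained for 2 h, the linalool group inhaled (R)-(-)-linalool, a floral monoterpene alcohol, for 2 h without restraint, and the last underwent restraint and linalool together for 2 h. The labels name no allele or other agent, and do not say whether an array holds 1 rat or a pool. The p-values therefore measure the spread between these samples, numbered 1 to 4 in each group, which may be partly technical. How long after the exposure the tissue was taken is not stated in the labels. In RNA from whole tissue, more cells expressing a gene and more RNA per cell cannot be told apart.

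Levels are given below as normalized signal, the array's linear brightness after the arrays were brought to a common distribution, and changes as differences of log2(signal + 16) with limma's standard error (SE). A call is a Benjamini-Hochberg adjusted p under 0.05 over all 18625 probe sets tested. Levels of different genes are not set against each other, because probe sets differ in how strongly they bind. The hypothalamic markers Pmch, Oxt and Avp, peptide genes of hypothalamic neurons, lay at or above the 99th percentile of all probe sets, and 7 of the 10 such markers measured passed the limit on low values, with Pomc, Otp and Sim1 below it. Neurod6 and Tbr1, which mark cortex, were both below it. Before normalization the median signal of an array ran from 67.0 to 127, lowest in control array 2. The spiked-in BioC control RNA read 903 to 960 on 3 arrays (linalool arrays 2 and 4, restraint with linalool array 2) and 246 to 282 on the other 13, with no label that names a reason.

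Over both odour conditions together, 4 of the 10 members rose with restraint: Gadd45g, Klf6, Gadd45b and Nr4a1. None fell, and all 10 estimates were positive, as were 46.8% of all probe sets tested. Their median was 0.56, against -0.011 over all probe sets tested. The members were chosen with earlier results of these data known, so their counts and median are descriptions. In that average effect 4.21% of all probe sets were called, 2.65% higher and 1.56% lower. In restraint against control, Gadd45g alone was called among the members (0.902% of all probe sets were called, 0.628% higher), and in restraint with linalool against linalool alone, Klf6, Gadd45g and Nr4a1 were (1.69%, and 1.12% higher). Those 2 comparisons share no arrays, and the average is made from both.

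**Figure D1:**
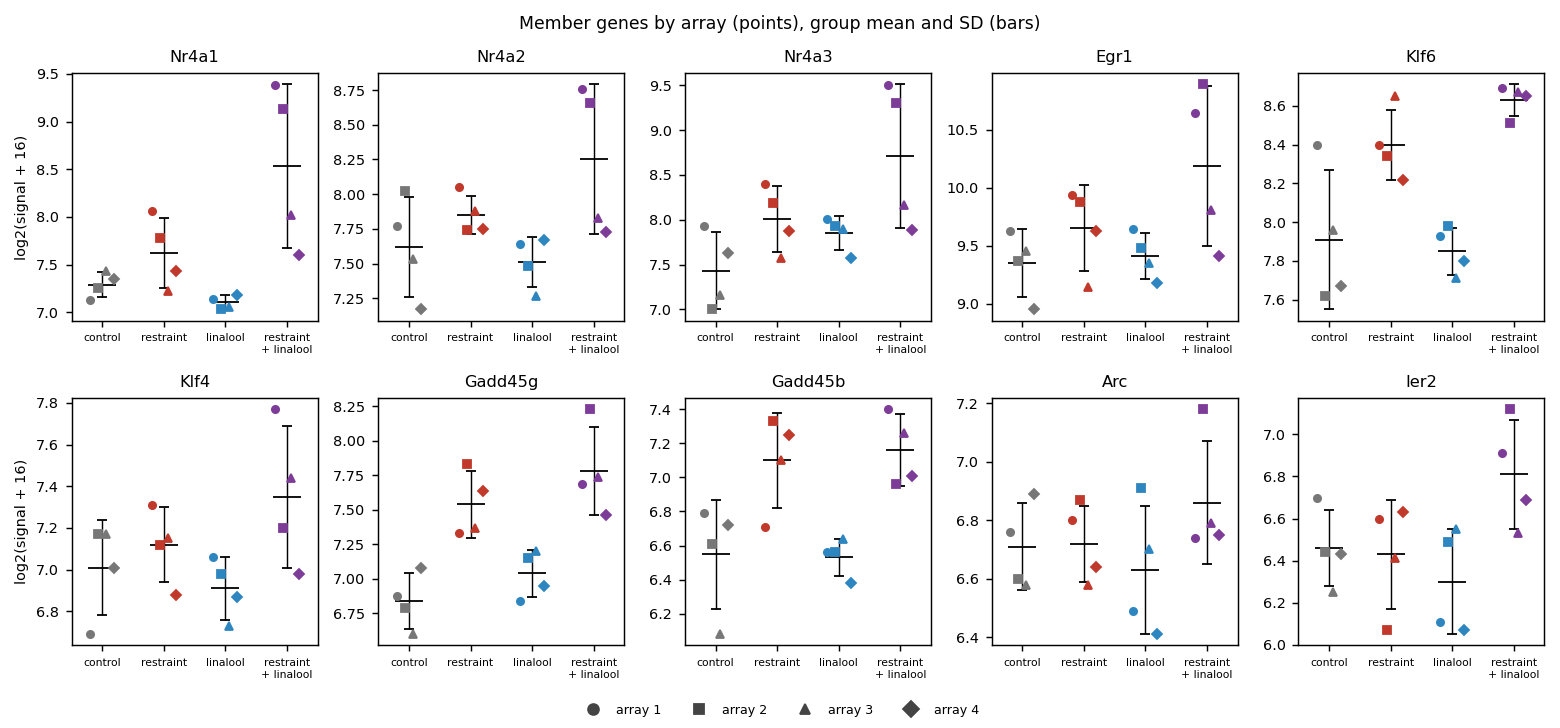
Signal of each member in every array on the log2(signal + 16) scale, 1 panel per gene (its brightest probe set), with arrays as symbols and the mean and SD of the 4 arrays of a group as bars. In Nr4a1, Nr4a2, Nr4a3 and Egr1, arrays 1 and 2 of the group with restraint and linalool lie far above arrays 3 and 4, while in Klf6 all 4 arrays of that group lie close together.

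Nr4a1, Nr4a2 and Nr4a3 code for orphan nuclear receptors whose activity is set mainly by how much of them is made; Nr4a1 is known in the stress axis as an activator of the Crh and Pomc genes. The promoter of Nr4a1 is printed because this member had the largest rise and because its sequence is rich in the short core of the cyclic AMP response element. It spans 250 bases before to 50 after a RefSeq transcription start on build GRCr8 at chr7:134259888-134260187, plus strand, with that core, TGACG or its reverse complement, in capitals.
Nr4a1 promoter: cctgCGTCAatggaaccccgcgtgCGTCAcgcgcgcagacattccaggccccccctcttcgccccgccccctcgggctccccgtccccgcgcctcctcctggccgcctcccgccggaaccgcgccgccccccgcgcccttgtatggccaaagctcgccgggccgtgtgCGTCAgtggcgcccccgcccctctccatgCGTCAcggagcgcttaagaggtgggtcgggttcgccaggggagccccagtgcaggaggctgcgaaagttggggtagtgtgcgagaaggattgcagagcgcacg
The core occurs 4 times, beginning 246, 226, 82 and 53 bases before the start. At least 4 copies on either strand were found in 79 of 33469 promoters of that length (0.236%), and at least 1 in 21.2%. Among the 8 members in the promoter table, 5 had at least 1 copy (Nr4a1, Nr4a2, Egr1, Ier2 and Gadd45b), and the whole palindrome TGACGTCA, which contains the core on both strands, was found in Ier2 alone, against 1.83% of all promoters. AAAGGTCA, which Nr4a proteins bind as monomers, was found in none of the 8 and in 1.43% of all promoters. These are matches of letters, and no binding was measured. Nr4a3 and Arc had no entry in that table.

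Nr4a1 was even in samples without restraint and uneven in restrained ones. In control arrays 1 to 4 its normalized signal was 124, 137, 156 and 147, and in the linalool arrays 125, 115, 118 and 129.5. Restrained samples had 251, 204, 133 and 157. Restraint with linalool gave 650, 542, 244 and 178. All 4 arrays of the last group were above all 4 that had linalool alone, whereas restrained and control arrays overlapped. The rise was 2.69-fold with linalool present (log2 1.43, SE 0.29, adjusted p = 0.0214) and 1.26-fold without it (log2 0.33, SE 0.29, adjusted p = 0.696), and 0.88 on the log2 scale on average (SE 0.21, adjusted p = 0.0257). The combined group held 82.0% of this gene's within-group sum of squares. The SE without linalool therefore rests largely on arrays outside that comparison, and the SE with linalool may be too small. Arrays 1 and 2 of the combined group held most of the rise: the group's log2 mean was 8.53 ± 0.86 (SD, n = 4), against an SD of 0.13 in controls and 0.07 with linalool alone.

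The call for Nr4a1 depended on single arrays. In restraint with linalool against linalool, the change stayed between 1.14 and 1.74 when any 1 of the 16 arrays was left out, but the adjusted p was 0.0633 and 0.0815 without arrays 1 and 2 of the combined group, and 0.0556, 0.0527 and 0.0708 without linalool arrays 1, 2 and 3. For the average, it was 0.0591 and 0.0551 without restraint arrays 1 and 2, 0.0533 without linalool array 3 and 0.0547 without array 2 of the combined group. The average call was also lost with no filter on low values (adjusted p = 0.052), with array weights (0.0514) and without control arrays 1 and 2 together (0.0779). Within the 13 arrays with a low BioC signal the change with linalool present was 1.24 (adjusted p = 0.179) and the average 0.79 (adjusted p = 0.116). With the BioC groups as a block they were 1.51 (adjusted p = 0.0169) and 0.92 (adjusted p = 0.0206).

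Nr4a2, needed for dopaminergic neurons in development, followed the same arrays with a smaller range. Its brighter probe set read 203, 243, 168 and 128 in control arrays 1 to 4, and 249, 198, 219 and 199 in restrained samples. With linalool the values were 184, 162, 138 and 187, and with both they were 417, 390, 211 and 197. The combined group lay above the linalool group without overlap, by 0.73 (SE 0.22, adjusted p = 0.108), and the average over both conditions was 0.48 (SE 0.15, adjusted p = 0.0937). The dimmer probe set, with group means of 71.0 to 95.4, differed by 0.29 with linalool present and by -0.01 without (adjusted p = 0.448 and 0.984). None of these passed the test.

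Nr4a3 codes for the remaining receptor of the family and was measured by 3 probe sets. The brightest read 229, 112, 127 and 182 in controls, 323, 275, 174 and 217 in restrained samples, 242, 229, 223 and 174 with linalool, and 706, 614, 272 and 221 with both. Arrays 1 and 2 of the combined group were again the highest of all 16, and every pair of groups compared overlapped. The average difference with restraint was 0.72 (SE 0.22, adjusted p = 0.0788). The middle probe set gave 0.40 (SE 0.19, adjusted p = 0.261), and the dimmest, with group means of 31.2 to 42.6, was below the limit on low values and was not tested. In the middle probe set all linalool arrays (log2 7.05 to 7.22) were above all controls (6.50 to 7.04), a pattern found in 2.53% of all probe sets; the difference of 0.39 did not pass (SE 0.27, adjusted p = 0.653).

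Egr1 codes for a zinc finger factor that binds GC-rich sites and is among the most used markers of neuronal activity. Its signal was 776, 647, 685 and 479 in control arrays 1 to 4, and 969, 927, 547 and 778 in restrained samples. With linalool it was 781, 698, 635 and 563, and with both it was 1575, 1881, 881 and 664. Arrays 1 and 2 of the combined group were the highest 2 of the 16, while array 4 lay within the range of the controls. The difference was 0.30 without linalool (SE 0.27, adjusted p = 0.704), 0.78 with it (SE 0.27, adjusted p = 0.168) and 0.54 on average (SE 0.19, adjusted p = 0.127). Without array 4 of the combined group, the average passed for Egr1 (0.67, adjusted p = 0.033), Nr4a2 (0.57, adjusted p = 0.0407) and Nr4a3 (0.85, adjusted p = 0.0247), so that the number of members called rose from 4 to 7. Over all probe sets 776 were called in that fit, against 784 with all arrays.

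**Figure D2:**
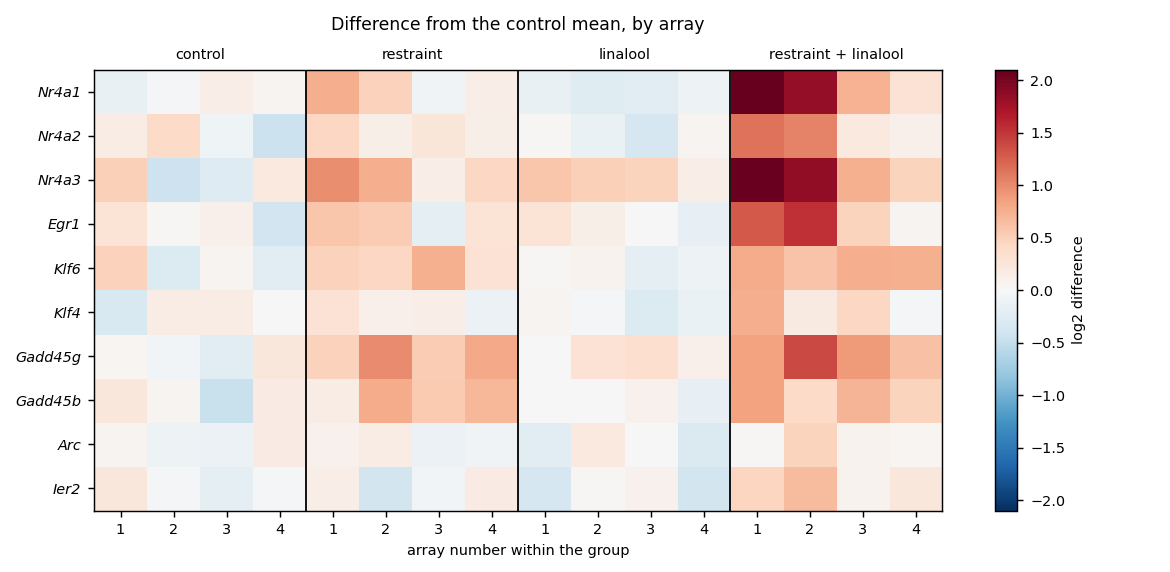
Log2 difference of each array from the mean of the 4 controls, with a row for each member and a column for each array. The strongest colours are arrays 1 and 2 of the group with restraint and linalool in the rows of Nr4a1 and Nr4a3. In the rows of Klf6 and Gadd45g every array of that group lies above the control mean.

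The 4 genes Nr4a1, Nr4a2, Nr4a3 and Egr1 moved together from sample to sample within groups. They were set together after this pattern was seen. Correlations of their deviations from group means over 16 arrays were 0.56 to 0.83 in the 6 pairs, with a median of 0.78, against a median of 0.30 over all 45 pairs of members. Pairs outside the 4 reached similar values, such as Gadd45g with Arc at 0.77 and Nr4a1 with Klf4 at 0.57. Between these 4 and Klf6, Gadd45g and Gadd45b they were -0.18 to 0.46 in 12 pairs, with a median of 0.07. The median of 0.78 rests largely on the combined group, since without its 4 arrays the median of the 6 pairs was 0.40, with a range from -0.18 to 0.57. That group held 82.0% of the within-group sum of squares of Nr4a1, 65.3% of that of Egr1, 64.3% of Nr4a3 and 61.2% of Nr4a2, against a median of 16.0% over all probe sets tested. The share was also high for Klf4 (52.3%) and Gadd45g (45.7%), and it was 34.0% for Arc, 29.6% for Ier2, 18.2% for Gadd45b and 3.74% for Klf6. For Nr4a1, Nr4a2, Nr4a3 and Egr1, the SE of a comparison without the combined group thus rests largely on arrays outside it. Controls held a median of 35.6% of this sum of squares over all probe sets tested, with 70.5% for Klf6 and 43.9% for Gadd45b. For such probe sets an SE pooled over all groups may be too small in comparisons with control. All correlations here are over arrays that share 1 normalization and are given as a description.

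Fos and Jun, which code for the partners of the AP-1 factor, were high in the same arrays. In the combined group Fos had log2 values of 10.77, 10.53, 9.73 and 9.40 in arrays 1 to 4, and Jun had 10.93, 10.79, 10.13 and 9.90. Sgk1, a kinase gene induced by glucocorticoids, had 11.28, 11.59, 11.57 and 11.40, with array 1 the lowest. The 3'/5' signal ratio of beta-actin, a measure of RNA integrity and labelling, was 3.47 and 3.01 in arrays 1 and 2 and 2.60 and 2.54 in arrays 3 and 4 of that group, against 2.08 to 4.93 in controls. With this ratio as a covariate, the Nr4a1 change with linalool present was 1.45 (adjusted p = 0.019). The BioC signal was high in array 2 and low in array 1. The summed signal of the 7 microglia markers ran from 2556 to 4805 in the combined group, highest in array 2. The markers did not move alike there: C1qa was highest in array 2 (2200 against 827 to 1340 in the other 3), and P2ry12 was lowest (220 against 253 to 424). The part of microglia in the spread between these arrays was not tested.

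Klf6 codes for a Krüppel-like zinc finger factor induced by injury and growth signals. Its promoter, at chr17:69458429-69458728 on GRCr8, minus strand, is printed because it holds a CArG box, the element bound by serum response factor, shown in capitals 201 bases before the start.
Klf6 promoter: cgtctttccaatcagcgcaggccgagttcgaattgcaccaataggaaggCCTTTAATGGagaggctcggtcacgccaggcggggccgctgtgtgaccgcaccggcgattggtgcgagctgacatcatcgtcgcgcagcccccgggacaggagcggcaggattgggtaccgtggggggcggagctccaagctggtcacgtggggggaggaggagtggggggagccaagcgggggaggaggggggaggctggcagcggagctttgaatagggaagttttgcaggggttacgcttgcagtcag
Among the 8 members in the table, Egr1 (2 copies) and Klf6 had a CArG box, searched as a pattern that covers both strands, against 1.64% of all promoters.

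Klf6 had the smallest spread of the 10 members in the combined group (log2 SD 0.08) and a wide one in controls (0.36). Its brightest probe set read 322, 181, 233 and 188 in control arrays 1 to 4, and 322, 309, 384 and 282 in restrained samples. With linalool it read 227, 237, 194 and 207, and with both 398, 349, 390 and 387. The combined and linalool groups did not overlap, and control array 1 reached the level of the restrained samples. Restraint raised it by 0.78 with linalool present (SE 0.14, adjusted p = 0.0106) and by 0.63 on average (1.55-fold, SE 0.10, adjusted p = 0.00178), and without linalool the difference was 0.49 (SE 0.14, adjusted p = 0.139). Both calls held in each of the 16 fits with 1 array left out, with adjusted p of at most 0.0468 and 0.00575. Without control array 1, the difference without linalool was called as well. Controls held 70.5% of this probe set's within-group sum of squares, so the SE without linalool may be too small. The SE with linalool present rests largely on arrays outside that comparison. Within the 13 arrays with a low BioC signal the change with linalool present was 0.86 (adjusted p = 0.0886) and the average 0.67 (adjusted p = 0.0166).

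The 3 probe sets of Klf6 gave unequal changes. The second differed by 0.31 with linalool present (SE 0.11, adjusted p = 0.191) and by 0.21 on average (SE 0.08, adjusted p = 0.152). The dimmest rose by 0.67 with linalool present (SE 0.15, adjusted p = 0.0363), and without linalool its difference was -0.18 (SE 0.15, adjusted p = 0.687). Those 2 changes differed by 0.85 (SE 0.22, adjusted p = 0.392). In that probe set the 4 arrays of the combined group (117 to 137) were above all restrained samples (73.5 to 103), which 5.04% of all probe sets also showed, with a difference of 0.45 (SE 0.15, adjusted p = 0.21). Which transcripts each probe set detects was not examined.

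**Figure D3:**
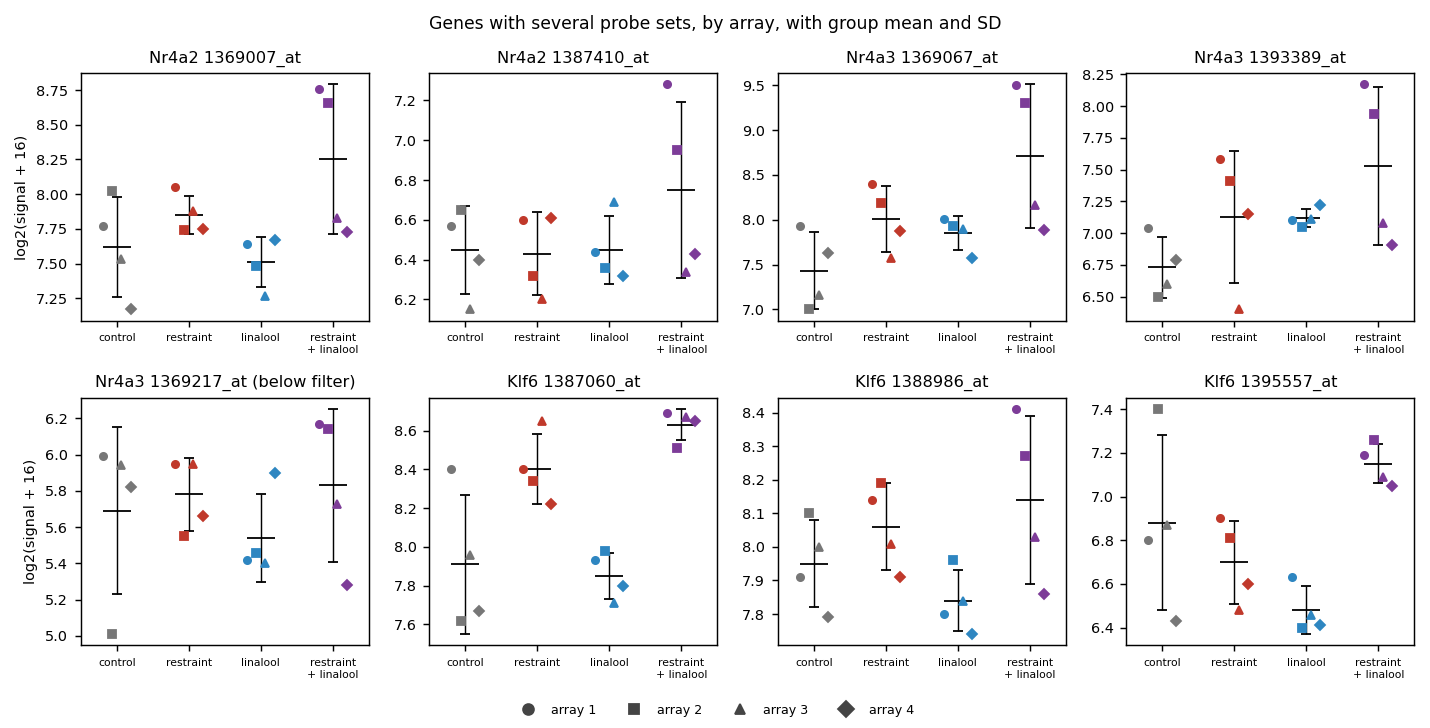
Signal in every array on the log2(signal + 16) scale for the 8 probe sets of Nr4a2, Nr4a3 and Klf6, with group mean and SD, brightest first within a gene. The brighter probe sets of Nr4a2 and Nr4a3 rise further in arrays 1 and 2 of the combined group than the dimmer ones, and the second Klf6 probe set changes less than the first.

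Klf4, a related factor known from stem cells and blood vessel lining, was dim. Its signal ran from 87.0 to 128 in controls, from 102 to 142 in restrained samples, from 90.0 to 118 with linalool and from 110 to 202 with both. Differences were 0.11 without linalool, 0.44 with it and 0.27 on average (SE 0.11, adjusted p = 0.18), and each pair of groups overlapped.

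Gadd45g and Gadd45b code for small stress-response proteins that act on MAP kinase signalling and DNA repair, and Gadd45b is known in neurons for its part in activity-driven loss of DNA methylation. The Gadd45g promoter, at chr17:13530302-13530601 on GRCr8, minus strand, is printed as that of the member called in both restraint comparisons. It holds a TATA box core, TATAAA, shown in capitals 48 bases before the start, and no core of the cyclic AMP response element.
Gadd45g promoter: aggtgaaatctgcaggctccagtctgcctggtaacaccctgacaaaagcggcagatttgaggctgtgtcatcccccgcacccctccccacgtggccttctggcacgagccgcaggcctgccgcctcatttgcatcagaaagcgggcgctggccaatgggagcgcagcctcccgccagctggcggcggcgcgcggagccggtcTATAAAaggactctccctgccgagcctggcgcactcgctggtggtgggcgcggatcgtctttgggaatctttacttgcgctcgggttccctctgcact
TATAAA on either strand was found in 14.2% of all promoters and in 2 of the 8 members, Gadd45g and Klf4. AGAACA, one arm of the glucocorticoid receptor's element, was found on either strand in none of the 8 and in 20.7% of all promoters.

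Gadd45g was higher in every restrained array than in every array of the matching group without restraint. Its signal was 102, 94.9, 81.0 and 120 in control arrays 1 to 4, and 144, 212, 150 and 183 in restrained samples. With linalool it was 98.9, 126, 131 and 108, and with both it was 190, 285, 198 and 161. Gadd45g too was dim, with a mean over all arrays at the 57.5th percentile of all probe sets. The rises were nearly equal, at 0.70 without linalool (1.63-fold, SE 0.16, adjusted p = 0.045) and 0.75 with it (1.68-fold, SE 0.16, adjusted p = 0.0229), and the average was 0.73 (SE 0.11, adjusted p = 0.00134). Such full separation upward was found for 1 of the 10 members without linalool, where 3.35% of all probe sets showed it, and for 5 with linalool present (Nr4a1, Nr4a2, Klf6, Gadd45g and Gadd45b), where 5.7% did.

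The average rise of Gadd45g was called in each fit with 1 array left out (0.65 to 0.78, adjusted p at most 0.00405), but the separate rises were not. Without linalool the call held when control array 4 or arrays 2 or 4 of the combined group were left out (adjusted p = 0.0384, 0.02 and 0.0352), and it was lost without any 1 of the other 13 arrays (adjusted p = 0.0533 to 0.151), of which restrained array 2 moved it most. With linalool present the adjusted p was 0.0832 and 0.0612 without linalool arrays 1 and 4, and 0.0565 and 0.0741 without arrays 1 and 2 of the combined group.

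Gadd45b, also dim, read 94.3, 81.5, 51.6 and 89.2 in controls and 88.4, 144, 121 and 137 in restrained samples. With linalool it read 78.1, 78.3, 83.9 and 67.4, and with both 153, 109, 137 and 113. All arrays of the combined group were above all that had linalool alone, and restrained array 1 lay among the controls. It rose by 0.59 on average (1.5-fold, SE 0.11, adjusted p = 0.00711), while the separate differences of 0.55 and 0.62 did not pass (adjusted p = 0.137 and 0.0602). The average was called in each fit with 1 array left out (adjusted p at most 0.0192). In arrays 1 to 4 of the combined group Gadd45g was highest in array 2, where Gadd45b was lowest.

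Arc, whose product trims AMPA receptors at synapses, and Ier2, a nuclear protein gene of the first response to growth signals, were dim members. Arc ran from 79.8 to 103 in controls, from 79.9 to 101 in restrained samples, from 68.8 to 104 with linalool and from 90.9 to 130 with both, with an average difference of 0.13 (95% interval -0.06 to 0.32, SE 0.09, adjusted p = 0.477). Ier2 ran from 60.3 to 87.8 in controls, from 51.3 to 83.1 in restrained samples, from 51.3 to 77.8 with linalool and from 76.2 to 123 with both. Its difference was -0.03 without linalool (SE 0.16, adjusted p = 0.964) and 0.51 with it (SE 0.16, adjusted p = 0.119). Neither gene passed the test in any of the 7 comparisons.

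**Figure D4:**
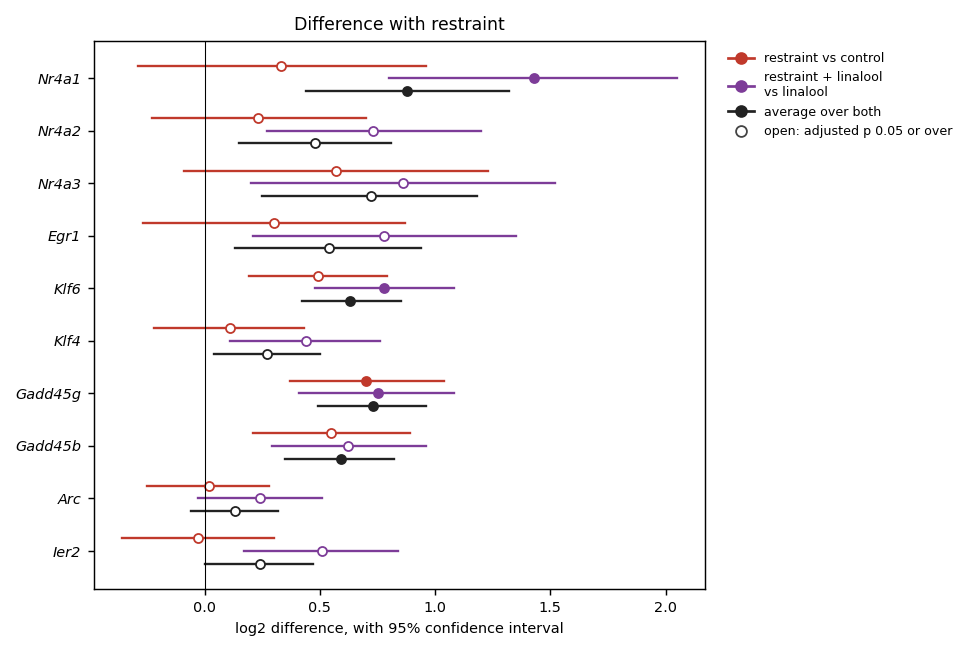
Log2 difference with restraint for each member, without linalool, with linalool present and averaged, as points with 95% confidence intervals from limma. Filled points passed the test: Gadd45g in all 3, Klf6 and Nr4a1 with linalool present and on average, and Gadd45b on average.

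The level of the arrays bears on these counts. In the signals as deposited, the median of all probe sets was 0.32 higher in the combined group than with linalool alone, and 0.10 and 0.21 higher with restraint without linalool and on average. On those values 9 members were called with linalool present, all but Arc, in a comparison where 1096 of 1103 called probe sets were higher, against 209 of 314 after normalization. Nr4a1 then differed by 1.76, and no member was called without linalool.

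Whether linalool altered the members was asked without restraint, under restraint and as the difference between both restraint changes. With limma, no member was called in any of these, nor in the average effect of linalool. Without restraint, 0 of 18625 probe sets were called. At an unadjusted p under 0.05 there were 1831, among them the brightest probe set of 0 members. By brightest probe set the members lay between -0.19 (Nr4a1) and 0.42 (Nr4a3), 3 of them positive. The dimmest Klf6 probe set differed by -0.40 (SE 0.15, unadjusted p = 0.0198, adjusted p = 0.41). Under restraint all 10 members were positive by brightest probe set, with a median of 0.31. An unadjusted p under 0.05 was found for 3: Nr4a1 (0.91, SE 0.29, adjusted p = 0.19), Nr4a3 (0.71, SE 0.31, adjusted p = 0.354) and Ier2 (0.38, SE 0.16, adjusted p = 0.313). The dimmest Klf6 probe set had one too (0.45, SE 0.15, unadjusted p = 0.00973, adjusted p = 0.21). With 1 array left out, 9 to 10 members were positive under restraint. For Nr4a1, arrays 3 and 4 of the combined group (244 and 178) lay within the range of restrained samples (133 to 251). For Nr4a3 they did so too (272 and 221, against 174 to 323). In that comparison 12.6% of all probe sets had an unadjusted p under 0.05, 0.65% were called, and 44.4% had a positive change. On average over restrained and unrestrained samples 0.714% of all probe sets were called. Nr4a3 alone among the members had an unadjusted p under 0.05 there (0.57, SE 0.22, adjusted p = 0.246), as did 2754 of all 18625 probe sets (14.8%).

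By brightest probe set, the restraint changes of all 10 members were larger with linalool present, and none of the differences passed. Of all probe sets tested, 45.6% had a positive difference. With 1 array left out, the number of members with a positive difference ran from 8 to 10. For Nr4a1 the difference was 1.09 (95% interval 0.21 to 1.98, adjusted p = 0.559), and for Ier2 0.54 (interval 0.07 to 1.01, adjusted p = 0.601). For Gadd45g it was 0.04 (-0.43 to 0.51) and for Gadd45b 0.07 (-0.40 to 0.55). No probe set on the array was called for this difference, with 1489 at an unadjusted p under 0.05. Among these were the brightest probe sets of 2 members, Nr4a1 and Ier2. The dimmest Klf6 probe set was also among them (0.85, interval 0.39 to 1.31, unadjusted p = 0.00126, adjusted p = 0.392). These intervals do not show that linalool left Gadd45g or Gadd45b as they were.

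**Figure D5:**
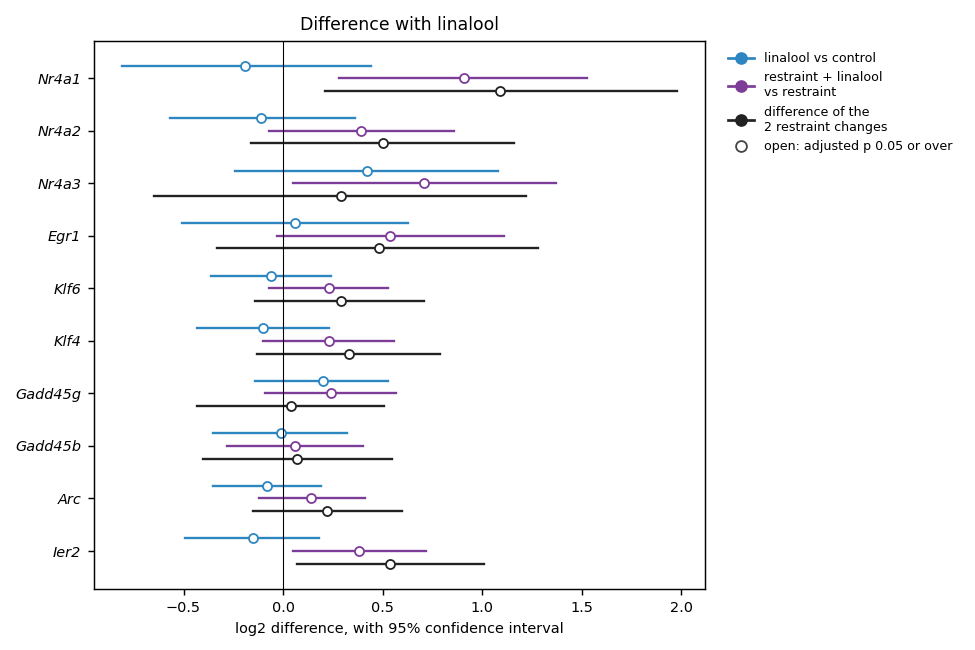
Log2 difference with linalool for each member's brightest probe set, without restraint and under restraint, and the difference between both restraint changes, as points with 95% confidence intervals from limma. All points are open because none passed the test, and the intervals of Nr4a1 and Ier2 for the difference of changes lie above 0.

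Related genes not among the 10 gave a mixed picture. Of 15 other genes of the same families, Egr2, Egr3 and Egr4 were below the limit on low values and 12 were tested. On average over both odour conditions 3 rose with restraint and none fell: Klf9 (0.65, SE 0.08, adjusted p = 0.000154), Klf15 (0.65, SE 0.07, adjusted p = 3.49e-05) and Klf2 (0.70, SE 0.18, adjusted p = 0.0366), with a median of 0.02 over the 12. Klf9 and Klf15, both known targets of the glucocorticoid receptor, also rose in each restraint comparison, by 0.67 and 0.74 without linalool and by 0.64 and 0.56 with it.

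Of 42 other immediate early genes listed, 39 had a probe set and 25 were tested. On average 10 rose and none fell, with a median of 0.35, and 2 rose without linalool and 6 with it. Fos (1.07, SE 0.20, adjusted p = 0.00691), Per1, a clock gene that glucocorticoids also induce (1.05, SE 0.11), Jun (0.88, SE 0.14) and Nfil3, a repressor of clock output genes (0.81, SE 0.14), had the largest average rises. Without linalool, Per1 (1.11) and Tiparp (0.55) were called. By contrast, all 9 tested of 10 glucocorticoid-induced genes rose in each restraint comparison, with a median of 1.26 without linalool and 0.98 with it. Klf9 and Per1 stand on that list and also on one of the others. Klf2, Klf10, Gadd45a, Ier3 and Ier5 stand on both of the others, so 5 of the 12 related genes are counted in each. The lists were drawn up with earlier results known, so their counts are descriptions.

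Few markers of cell types were called. Of 7 microglia markers, 2 (P2ry12 and Cx3cr1) fell with restraint on average and none rose. Their summed signal ran from 2932 to 3028 in controls, 2240 to 2934 with restraint, 2589 to 3310 with linalool and 2556 to 4805 with both. None of the 5 neuronal markers was called, with sums of 14506 to 16909 in controls and 13786 to 15531 in the combined group. Of 6 astrocyte markers 1 rose, and of 6 markers each of oligodendrocytes and endothelium 1 fell. Of the 5 pituitary markers, Cga, Tshb and Lhb passed the limit on low values and Gh1 and Prl did not. None was called, and their summed signal ran from 242 to 6926 in controls and from 2356 to 6043 in the combined group. The part of cell composition and of pituitary tissue in the members' changes was not tested.

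For each member, the 3 genes outside the set with the highest Pearson correlation over the 16 arrays were found among 10241 named genes. For Nr4a1 they were Jun (0.96), the stress-induced zinc finger gene Zfand2a (0.95) and Herc4 (0.94), and the same 3 came up for Nr4a2. For Nr4a3 they were Crem, a cyclic AMP-responsive repressor gene (0.92), Srxn1 (0.92) and Uspl1 (0.92). For Egr1 they were Fos (0.93) and the genes of the mitochondrial chaperonin pair, Hspe1 (0.90) and Hspd1 (0.90). These likenesses held in the deviations from group means, at 0.93 for Jun with Nr4a1 and 0.94 for Fos with Egr1.

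Klf6 and the Gadd45 genes had other neighbours. For Klf6 they were Ackr3 (0.91), Plekhf1 (0.89) and Bcl6 (0.87), with correlations of deviations of 0.61, 0.66 and 0.37. For Gadd45b they were the deubiquitinase gene Usp2 (0.85), Fkbp5, a chaperone gene induced by glucocorticoids (0.84), and Plekhf1 (0.84), with 0.44, 0.47 and 0.37. For Gadd45g they were the chaperone genes Cct3 (0.92) and Chordc1 (0.91), and Herpud1 (0.90). For Gadd45g the correlations of deviations were 0.75, 0.57 and 0.55. The closest genes to Klf4 were RT1-CE10 (0.86), the kinase gene Sik1 (0.83) and the collagen chaperone gene Serpinh1 (0.82). For Arc they were Ptpn6 (0.83), Plac8 (0.75) and Ilkap (0.75), and for Ier2 Btg1 (0.84), Orc4 (0.82) and Ehmt1 (0.81).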

How the data were processed

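Hypothalamic RNA of rats was measured on 16 single-colour Affymetrix arrays, per the labels. The deposited values are signal intensity, 1 per probe set. Per the submitters' processing notes they come from MAS5, for which neither version nor scaling target is stated. Arrays were not at a common level, so the deposited intensity values (31099 probe sets) were quantile-normalized as log2 values, 57 control probe sets were removed, and 16 was added before log2. Probe sets with a mean at or above the 40th percentile (18625) went into limma (version 3.58.1, under R 4.3.3; group means over all arrays, lmFit, eBayes, two-sided), with Benjamini-Hochberg adjustment. This scale understates the changes of dim genes. A gene's brightest probe set represents it.

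Members, lists and naming rules were chosen with earlier results of these data known. The rule names all members, Fos, Jun, Sgk1, up to 4 called genes of each list and the 3 closest genes per member; others named were chosen after their values were seen. In simulated data with 200 of 18625 probe sets changed, for restraint against control, 47.0% of changes of 0.5 and 90.4% of changes of 1 (log2) were recovered. The simulated noise was normal, with the same SD in every group for a given probe set. Spread differed between groups in these arrays, so these rates may not hold for them. Promoter sequences are RefSeq's (GRCr8), and all 10 members matched the gene table by gene ID. The number of arrays limits the precision.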

Additional observations from a re-analysis of the deposited data

Results flagged for a closer look

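In restraint with linalool, array 2 stood apart from the other 3 arrays in Arc, with 7.18 on the log2(signal + 16) scale against 6.74 to 6.79. The gap to the nearest array was 0.889 of the group's range. The members gave 40 groups of 4 arrays to examine in this way and this was the single one found. Chance gives about 1 in every 20 groups examined, so 1 in 40 is not more than chance gives.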

How the results depend on the processing

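Of the 7 counts of called members, those for linalool without restraint, linalool under restraint, the average effect of linalool and the interaction were 0 under all 28 alternatives. Calls over all probe sets are given in brackets, out of 18625 unless stated. For restraint without linalool the count fell from 1 (168) to 0 with the signals as deposited (54), a pseudocount of 64 (164) and no filter (102 of 31042). It was also 0 with a filter at the 60th percentile (138 of 12417), where 5 members were tested, and with array weights (72). Without control arrays 1 and 2 together, an alternative added after seeing the data, it was 0 as well (42). With linalool present it went from 3 (314) to 9 with the signals as deposited (1103). It was 5 after adding the 3'/5' ratio of beta-actin to the model (553) and 4 with array weights (594). With no filter (188 of 31042) and with the filter at the 60th percentile (224 of 12417) it was 2. Within the low-BioC arrays, where 3 arrays are set against 2, it was 0 (74). The average effect went from 4 (784) to 8 with the signals as deposited (1035) and 2 with the filter at the 60th percentile (616 of 12417). It was 5 with the beta-actin ratio (1030). With no filter (523 of 31042), array weights (885), the low-BioC arrays (457) and without control arrays 1 and 2 together (680), it was 3. With 1 array left out the counts of called members ran from 0 to 1, 1 to 5 and 3 to 7. For restraint without linalool the member called was Klf6 without control array 1, and Gadd45g in the other fits with a call. The fit at the 60th percentile did not test Gadd45g and Gadd45b (at the 57.5th and 49.8th percentile), so it could not call them. Klf6 and Nr4a1 were tested there and stayed called with linalool present and on average. The low-BioC fit has fewer arrays. For the other changes the cause was not tested. Of the called changes none turned direction under any alternative. Over all probe sets, same-numbered arrays of different groups did not deviate together (4 of 24 pairs correlated over 0.1, and 5 of 16 arrays correlated best with their own number), and with the replicate number as a block the counts were 1, 3 and 6, with Egr1 and Nr4a3 added to the average effect. Exact permutation tests of 4 against 4 arrays gave p = 0.0286, the smallest they allow, for each called change between 2 groups. Any full separation of the groups gives that value, so it only repeats that these groups did not overlap. Changes that were not called had it too, such as those of Nr4a2 and Gadd45b with linalool present. Dim signal limits Arc, Ier2 and Gadd45b most.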
